A study of Mus musculus with 6 samples.

Results

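The 46 genes described here encode the enzymes and carriers of fatty acid oxidation and the peroxins that build peroxisomes. They were taken by symbol from a table of 18392 genes, in 4 groups by role: 17 genes of mitochondrial beta-oxidation, 9 of peroxisomal beta-oxidation, 9 that activate, release or trap acyl chains or steer fuel use, and 11 Pex genes. Their RNA was measured in alveolar macrophages, phagocytes that live in the air spaces of the lung, which were isolated by flow sorting from digested mouse lungs. The 3 knockout libraries came from Cd11c-CreHdac3fl/fl mice, in which a Cre recombinase under the promoter of Cd11c (Itgax) acts on Hdac3 alleles flanked by loxP sites. The 3 control libraries came from Hdac3fl/fl mice, for which the labels name no Cre, so an effect of Cre itself and an effect of the loss of Hdac3 cannot be told apart. All mice were C57BL/6 and 6 weeks old, and both groups carry the floxed alleles. The Cd11c promoter is also active in dendritic cells, and it acts from the time the macrophages form. No label ties a library to a mouse of its own, so the p-values here describe the spread among libraries, which may be technical.

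Fatty acids are burned in mitochondria and shortened in peroxisomes. Long chains are first joined to coenzyme A, then passed through the carnitine shuttle into mitochondria, where repeated cycles of dehydrogenation, hydration, oxidation and thiolysis shorten them and feed electrons to the respiratory chain. Peroxisomes take up very long and branched chains through ABC transporters, shorten them with their own set of enzymes, and depend on peroxins for their membrane, for the import of their enzymes and for division. Alveolar macrophages take up and break down surfactant lipid, and Hdac3 is the deacetylase of nuclear receptor corepressor complexes.

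Values are FPKM, fragments scaled to transcript length and to the mapped fragments of the library, so levels can be compared between genes. Hdac3 itself was at 4.36, 5.05 and 3.97 FPKM in knockout libraries, against 17.71, 19.89 and 16.94 FPKM in control libraries, and the groups did not overlap; the floxed exons are not named, and reads from exons that remain are counted too. The 10 most abundant genes held 25.5 to 26.8% of the summed FPKM in knockout libraries and 13.2 to 13.9% in control libraries, and FPKM are shares of a library. The limma test on log2(FPKM + 1), with p-values adjusted by Benjamini-Hochberg over 10847 genes, was therefore run on the values as deposited and again after TMM scaling (trimmed mean of M values), which sets the bulk of genes to a like level. Over all tested genes the median log2 change, knockout minus control, was -0.31 before that scaling and 0.02 with it. A gene was called at an adjusted p under 0.05. As deposited 11.0% of all tested genes were called higher in knockouts and 58.8% lower; after TMM scaling the shares were 30% and 26.0%.

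All 46 genes were listed and all passed the filter of a mean of 1 FPKM, with means over the 6 libraries between 3.60 FPKM (Pex10) and 1294 FPKM (Ucp2). As deposited 7 were called higher and 26 lower in knockouts, and 13 were not called. As many lay wholly above (7) or wholly below (26) the controls without overlap, beside 12.1% and 62.4% of all tested genes. By 2-fold or more on the log2 scale 2 were higher (Pex11a and Angptl4) and 3 lower (Acaa1b, Eci2 and Pex6), beside 2.25% and 7.91% of all tested genes. After TMM scaling 14 were called higher and 12 lower. Under both scalings 7 were higher and 12 lower, or 15.2% and 26.1% of the 46, beside 11.1% and 26.0% of all genes tested under both. The 46 had a median log2 change of -0.27 as deposited and 0.08 after TMM scaling, beside -0.31 and 0.02 for all tested genes. The shares of calls thus lay near those of all tested genes, and the large differences lay in single members. The calls of 5 of the 7 genes higher under both scalings (Acadl, Hsd17b4, Acsl4, Angptl4 and Pex11a) and of 9 of the 12 lower ones (Cpt1a, Acadvl, Acaa1a, Acaa1b, Eci2, Abcd3, Ucp2, Pex2 and Pex6) held under both scalings whichever library was left out. Pex2 and Acadvl held narrowly: after TMM scaling their largest limma adjusted p with 1 library left out was 0.05 (rounded) and 0.041. In a bulk sample, less RNA per cell and fewer cells of a type cannot be told apart.

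**Figure D1:**
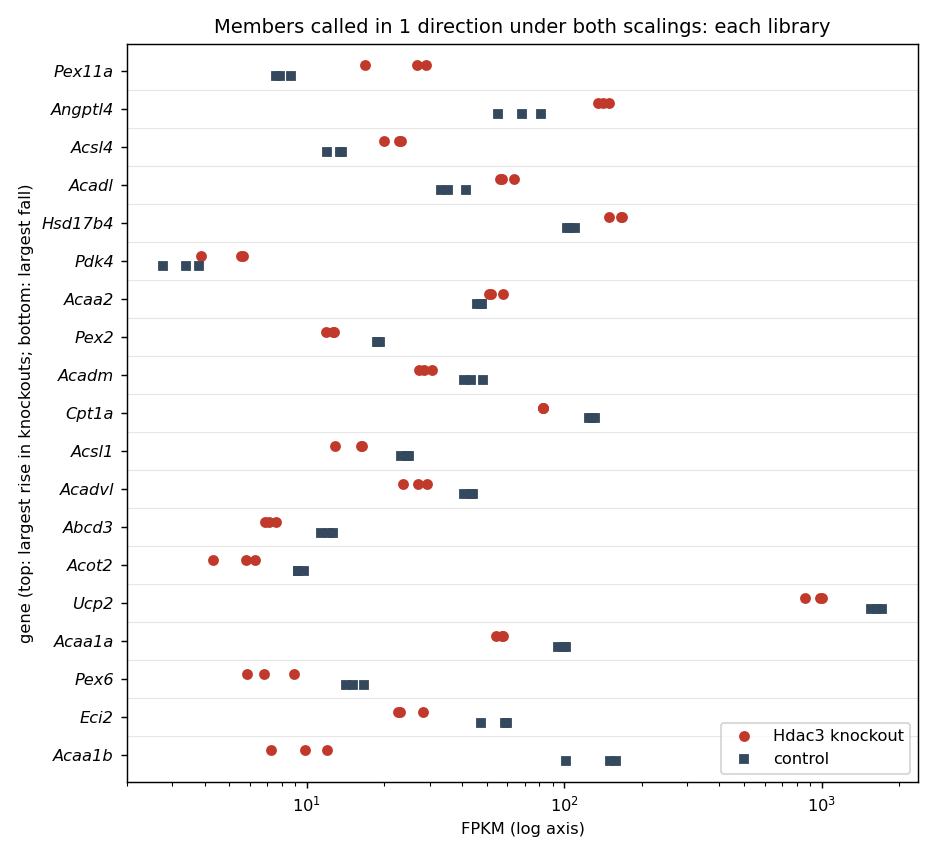
FPKM (log axis) in every library of the members called in 1 direction under both scalings, 7 higher and 12 lower. Knockout libraries are drawn above control libraries in each row, and the other members are not drawn. Acaa1b, at 7.27 to 11.96 FPKM in knockouts against 101.80 to 159.26 FPKM in controls, has the widest gap, and Pex11a and Angptl4 stand on the other side with knockout libraries above all controls.

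**Figure D2:**
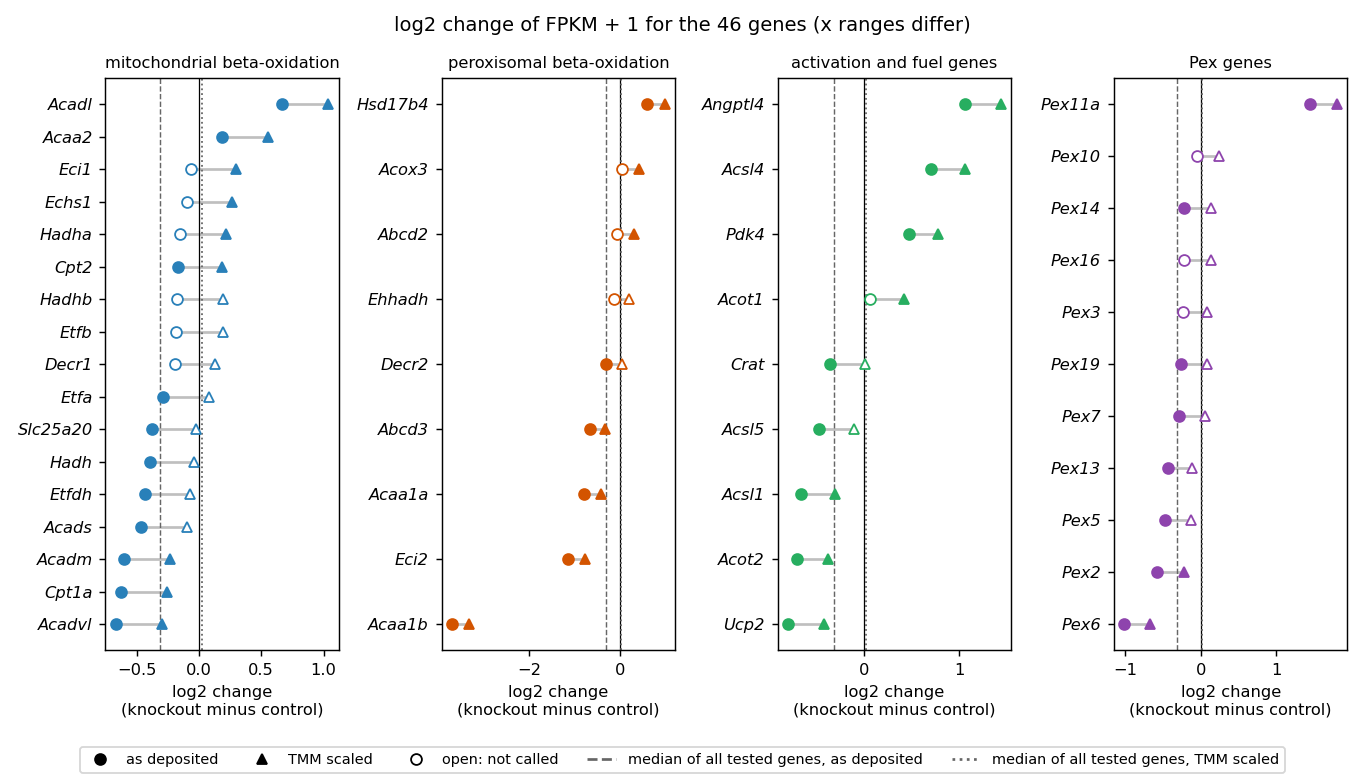
The log2 change of FPKM + 1 (knockout minus control) of each gene, as deposited (circles) and after TMM scaling (triangles), with open symbols for genes not called and dashed and dotted lines at the median of all tested genes, -0.31 and 0.02. Scaling moves every gene to the right by a like amount, and Acadl, Hsd17b4, Angptl4, Acsl4 and Pex11a lie right of 0 in both.

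The most changed of the 46 genes was Acaa1b, one of the mouse's paired genes for the peroxisomal 3-ketoacyl-CoA thiolase, which splits off acetyl-CoA in the last step of each cycle. Acaa1b (chromosome 9, 119148043 to 119157093) was at 9.86, 11.96 and 7.27 FPKM in knockout libraries, against 159.26, 150.29 and 101.80 FPKM in control libraries. Every knockout library lay far below every control, with a knockout mean at 7.07% of the control mean. This is a log2 change of -3.69 (SE 0.25, limma adjusted p = 9.2e-05) as deposited and, TMM-scaled, -3.33 (adjusted p = 0.00024). Its paralog Acaa1a (chromosome 9, 119341028 to 119350296) encodes the same activity and was at 54.22, 57.91 and 57.10 FPKM in knockout libraries, against 101.07, 99.49 and 94.11 FPKM in control libraries. That was a smaller fall, with a log2 change of -0.79 (limma adjusted p = 4.8e-06) as deposited and, TMM-scaled, -0.42 (adjusted p = 0.00032). Acaa1b made up 15.39, 17.12 and 11.29% of the FPKM of the pair in knockout libraries, against 61.18, 60.17 and 51.96% in control libraries. Controls thus carried more Acaa1b than Acaa1a and knockouts less, in every library, and this share does not depend on the scaling.

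Acaa1a and Acaa1b lie 183.9 kb apart and their coding sequences, each of 1272 bases, differ at 44 bases (96.5% identical, longest identical run 327 bases; GENCODE M21 transcripts). Of the 50-base windows of their transcripts, 34.0% for Acaa1a and 35.5% for Acaa1b occur in both, so the split of reads between them carries some uncertainty. Their sum, which rests less on the split, was 64.08, 69.87 and 64.37 FPKM in knockout libraries, against 260.3, 249.8 and 195.9 FPKM in control libraries, again without overlap. A further 10.7% of the Acaa1b windows lie across Dlec1 on the other strand, which was at 0.45 FPKM or less in every library. The stretch of the coding sequence in which they differ most, bases 259 to 318 counted from the start codon, is shown here because reads over it tell them apart, with capitals at the 11 bases that differ.
Acaa1b coding bases: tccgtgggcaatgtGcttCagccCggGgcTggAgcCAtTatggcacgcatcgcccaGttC
Acaa1a coding bases: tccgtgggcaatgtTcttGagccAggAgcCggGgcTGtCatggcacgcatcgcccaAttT

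The bases before the transcription start of each paralog (RefSeq, GRCm38.p6) are shown because the genes are alike in their coding sequence and unlike in the size of their fall. Both are given on the strand of the gene, with capitals at CCAAT or its complement ATTGG. The Acaa1b window is chr9:119157094-119157343 on the minus strand and the Acaa1a window chr9:119341044-119341293 on the plus strand, before a start inside the outer bounds of that gene.
Acaa1b promoter: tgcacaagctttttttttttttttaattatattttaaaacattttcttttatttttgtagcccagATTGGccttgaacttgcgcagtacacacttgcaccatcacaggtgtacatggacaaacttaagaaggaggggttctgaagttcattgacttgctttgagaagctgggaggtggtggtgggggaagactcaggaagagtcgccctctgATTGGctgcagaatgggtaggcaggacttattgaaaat
Acaa1a promoter: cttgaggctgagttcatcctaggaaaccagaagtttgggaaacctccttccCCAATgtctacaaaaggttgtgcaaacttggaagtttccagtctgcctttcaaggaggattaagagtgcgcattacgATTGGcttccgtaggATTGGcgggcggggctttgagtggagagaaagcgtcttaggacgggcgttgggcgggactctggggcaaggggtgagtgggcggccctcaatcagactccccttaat
The Acaa1b window holds 2 such matches and the Acaa1a window 3. CCAAT, searched after these windows had been read, was found on either strand in 18 of the 43 windows of 300 bases that cover the starts of 38 of the 46 genes (41.9%), beside 37.4% of all 32851 windows. None of the 43 windows held AGGTCA repeated after 1 base of any kind, the direct repeat that PPAR and RXR bind, or the looser form with AGGNCA in both places, which includes it. These occur in 0.0396% and 0.381% of all windows on either strand, so rarely that their absence from 43 windows says little. TCAAGGTCA, a form of the half-site of estrogen-related receptors, was found in none and in 0.423% of all windows, and the E-box CACGTG in none and in 7.15%. GCGCA and GCGC with any 1 base between them, a form of the NRF1 site, was in the windows of Abcd3, Etfb, Etfdh and Pex10, or 9.3% of the 43 beside 4.6% of all. These are letter matches in short windows, and none was tested as a binding site. The 8 genes without a window, and so not searched, were Abcd2, Acaa2, Angptl4, Crat, Decr1, Hsd17b4, Pex2 and Pex19.

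**Figure D3:**
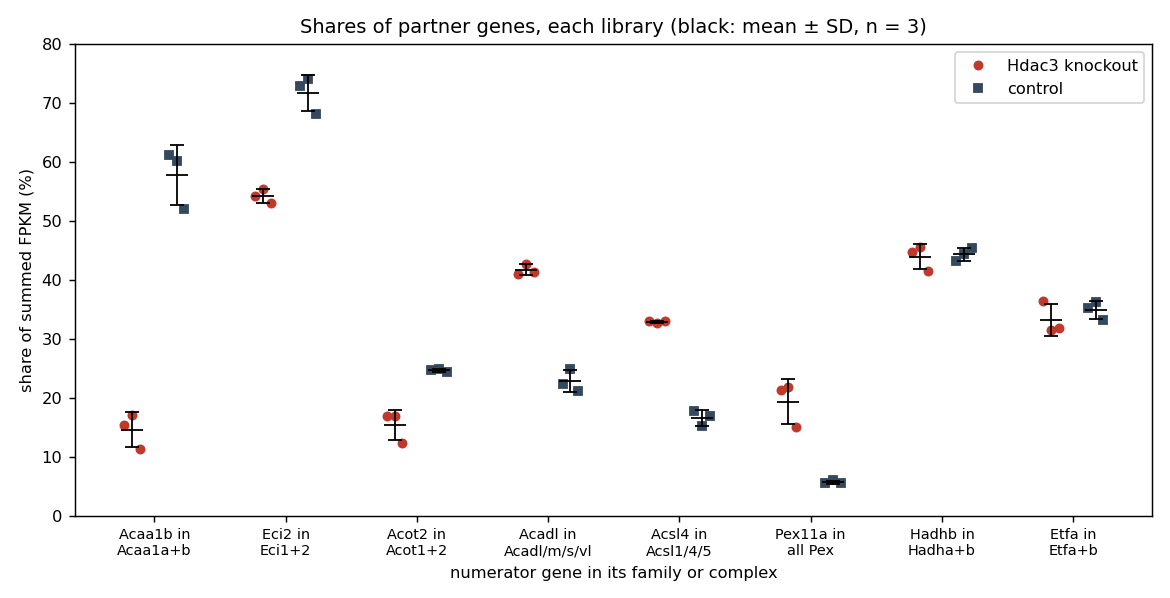
Shares of FPKM within pairs or families of genes, in percent, for each library, with knockouts left of controls. The Acaa1b share of the Acaa1 pair, 11.29 to 17.12% in knockouts against 51.96 to 61.18% in controls, and the shares of Acsl4 and Acadl lie apart, while the Hadhb share of the trifunctional protein pair overlaps.

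Among the other peroxisomal genes Eci2 fell by over 2-fold as deposited, Abcd3 fell less and Hsd17b4 rose. Of the 9 peroxisomal genes 1 was called higher (11.1%) and 5 lower (55.6%) as deposited, beside 11.0% and 58.8% of all tested genes. TMM scaling made that 3 higher (33.3%) and 4 lower (44.4%), beside 30% and 26.0% of all tested genes. The group had a median log2 change of -0.30, or 0.03 after TMM scaling. Eci2, the peroxisomal enoyl-CoA isomerase that moves double bonds of unsaturated chains, was at 22.53, 28.12 and 23.02 FPKM in knockout libraries, against 58.65, 60.05 and 47.48 FPKM in control libraries. The knockout mean was 44.3% of the control mean, with a log2 change of -1.14 (SE 0.11, limma adjusted p = 4.6e-05) as deposited and, TMM-scaled, -0.77 (adjusted p = 0.00067). Its mitochondrial counterpart Eci1 was at 19.08, 22.64 and 20.44 FPKM in knockout libraries and 21.80, 21.10 and 22.17 FPKM in control libraries, which overlapped. Eci2 made up 52.97 to 55.40% of the FPKM of both isomerases in knockout libraries and 68.17 to 74.0% in control libraries.

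Hsd17b4, the D-bifunctional protein that hydrates and oxidizes very long and branched chains, moved the other way. It was at 165.89, 166.81 and 148.59 FPKM in knockout libraries, against 104.87, 109.96 and 102.16 FPKM in control libraries, a 1.52-fold higher mean with no overlap. This is a log2 change of 0.60 (SE 0.07, limma adjusted p = 4.9e-05) as deposited and, TMM-scaled, 0.97 (adjusted p = 3.5e-06). Ehhadh, the L-bifunctional protein of the classical route, averaged 9.29 ± 1.57 FPKM in knockouts and 10.4 ± 1.90 FPKM in controls (SD, n = 3 each) and was called under neither scaling. The D-bifunctional gene was therefore the more abundant of the pair in both groups.

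Of the ABC transporters that carry acyl chains into the peroxisome, Abcd3 (PMP70) was at 7.13, 7.59 and 6.90 FPKM in knockout libraries, against 11.38, 12.21 and 12.67 FPKM in control libraries. It fell without overlap, with a log2 change of -0.67 (limma adjusted p = 3.5e-05) as deposited and, TMM-scaled, -0.33 (adjusted p = 0.0028). Abcd2, the more abundant transporter here, was at 52.69, 51.60 and 46.15 FPKM in knockout libraries and 48.17, 52.87 and 57.16 FPKM in control libraries. These overlapped, and its log2 change turned, -0.07 (adjusted p = 0.44) as deposited and, TMM-scaled, 0.30 (adjusted p = 0.0083). Acox3, an oxidase of branched chains, averaged 66.4 ± 3.43 FPKM in knockouts and 64.7 ± 2.40 FPKM in controls (SD, n = 3 each) and was called higher only after TMM scaling (log2 change 0.41). Decr2, the peroxisomal dienoyl-CoA reductase, was at 7.39, 7.67 and 7.03 FPKM in knockout libraries and 9.01, 8.07 and 11.11 FPKM in control libraries. Its call, with an adjusted p of 0.027 as deposited, was lost without knockout replicate 1 (adjusted p = 0.063), knockout replicate 3 (0.082) or control replicate 3 (0.064), and its log2 change was 0.03 after TMM scaling.

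In mitochondrial beta-oxidation, 2 of 17 genes were called higher (11.8%) and 9 lower (52.9%) as deposited, beside 11.0% and 58.8% of all tested genes. TMM scaling made that 6 higher (35.3%) and 3 lower (17.65%), beside 30% and 26.0% of all tested genes. The group had a median log2 change of -0.19, or 0.13 after TMM scaling, so the balance of the group turned with the scaling, as it did for all tested genes. Cpt1a, the outer-membrane carnitine palmitoyltransferase and the control point of entry, was at 82.32, 82.58 and 82.78 FPKM in knockout libraries, against 127.63, 131.39 and 124.85 FPKM in control libraries. The 3 knockout libraries were almost equal, and the fall held under both scalings, with log2 changes of -0.63 (limma adjusted p = 1e-05) and -0.25 (adjusted p = 0.0035). Cpt2, the inner-membrane partner, was at 15.45, 15.61 and 13.87 FPKM in knockout libraries and 17.15, 17.17 and 16.48 FPKM in control libraries. It was the only one of the 46 called in opposite directions, -0.17 (adjusted p = 0.045) as deposited and, TMM-scaled, 0.19 (adjusted p = 0.036); 1.48% of genes tested under both did the same. Either call was lost when 1 library was left out, in 5 of 6 cases under each scaling, with an adjusted p of up to 0.12 as deposited and up to 0.13 after TMM scaling. Slc25a20, the carrier that exchanges acylcarnitine for carnitine, averaged 17.4 ± 0.747 FPKM in knockouts and 23.0 ± 2.01 FPKM in controls (SD, n = 3 each), and was called lower as deposited only.

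The acyl-CoA dehydrogenases, which open each cycle and differ in chain length, did not move together. Acadl, for long and branched chains, was at 56.04, 63.87 and 57.03 FPKM in knockout libraries, against 35.43, 41.66 and 33.28 FPKM in control libraries. It rose without overlap, by a log2 change of 0.67 (SE 0.09, limma adjusted p = 0.00016) as deposited and, TMM-scaled, 1.04 (adjusted p = 1.6e-05). Acadvl, for very long chains, was at 27.07, 29.27 and 23.60 FPKM in knockout libraries, against 44.00, 43.43 and 40.62 FPKM in control libraries. It fell, with log2 changes of -0.66 (adjusted p = 9.1e-05) and, TMM-scaled, -0.30 (adjusted p = 0.011); 24.0% of the 50-base windows of its transcripts lie across Dvl2 on the other strand, and how strand was handled is not given; Dvl2 was at 6.56 to 7.56 FPKM in knockouts and 7.60 to 7.78 FPKM in controls. Acadm, for medium chains, was at 27.24, 28.40 and 30.67 FPKM in knockout libraries, against 40.77, 43.45 and 48.44 FPKM in control libraries. Its log2 change was -0.60 (adjusted p = 0.00012) as deposited, and its call after TMM scaling (-0.23, adjusted p = 0.025) was lost without knockout replicate 1 (0.077), knockout replicate 2 (0.065), control replicate 2 (0.055) or control replicate 3 (0.072). Acads, for short chains, averaged 26.9 ± 0.868 FPKM in knockouts and 37.6 ± 2.31 FPKM in controls (SD, n = 3 each) and was called lower as deposited only. Acadl thus made up 40.99, 42.74 and 41.40% of the FPKM of the 4 dehydrogenases in knockout libraries, against 22.37, 24.79 and 21.15% in control libraries.

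In the later steps of the mitochondrial cycle only Acaa2 was called in 1 direction under both scalings. Acaa2, the mitochondrial thiolase, was at 50.80, 57.88 and 52.09 FPKM in knockout libraries, against 47.29, 47.68 and 45.57 FPKM in control libraries. It was called higher, with a log2 change of 0.19 (limma adjusted p = 0.025) as deposited and, TMM-scaled, 0.56 (adjusted p = 9e-05). The first call was lost without knockout replicate 2 (adjusted p = 0.091) or control replicate 1 (0.055), 2 (0.051) or 3 (0.063), and with TPM (0.22); the second held whichever library was left out. Acaa2 and the peroxisomal Acaa1 pair catalyse the same kind of step, and their log2 changes had opposite signs under both scalings.

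Hadha and Hadhb encode the subunits of the trifunctional protein, which carries long chains through the later steps of the cycle. Hadha was at 81.53, 86.44 and 77.92 FPKM in knockout libraries and 94.46, 94.67 and 85.02 FPKM in control libraries, with overlap. Its log2 change was -0.15 (adjusted p = 0.063) as deposited and, TMM-scaled, 0.22 (adjusted p = 0.022), and the second call was lost without knockout replicate 1 (0.055), knockout replicate 2 (0.083) or control replicate 3 (0.059). Hadhb averaged 64.6 ± 8.60 FPKM in knockouts and 72.7 ± 2.75 FPKM in controls (SD, n = 3 each), called under neither scaling; 57.9% of its 50-base windows also occur in transcripts annotated as Gm13910, not analysed here. Hadhb made up 44.71, 45.58 and 41.54% of the pair's FPKM in knockout libraries and 43.13, 44.46 and 45.36% in control libraries, which overlapped. These genes lie head to head on chromosome 5, with annotated starts 273 bases apart, and the sequence before the Hadhb start (GRCm38.p6, chr5:30155003-30155252, plus strand) is shown because it spans most of the gap between the starts; it holds no CCAAT and has no capitals.
Hadhb promoter: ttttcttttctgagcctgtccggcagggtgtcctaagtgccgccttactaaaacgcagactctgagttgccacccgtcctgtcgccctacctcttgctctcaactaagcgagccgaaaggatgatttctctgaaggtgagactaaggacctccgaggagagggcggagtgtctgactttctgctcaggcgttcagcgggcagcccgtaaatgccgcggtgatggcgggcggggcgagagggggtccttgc

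Echs1, the enoyl-CoA hydratase, was at 29.12, 33.28 and 32.06 FPKM in knockout libraries and 35.34, 36.28 and 29.90 FPKM in control libraries. These overlapped, and its log2 change was -0.10 (limma adjusted p = 0.32) as deposited and, TMM-scaled, 0.27 (adjusted p = 0.026), a call lost without knockout replicate 2 (0.083), knockout replicate 3 (0.072) or control replicate 3 (0.063). Eci1, whose values stand above, had log2 changes of -0.07 (adjusted p = 0.42) and 0.29 (adjusted p = 0.0059). Hadh, the dehydrogenase of shorter hydroxyacyl chains, lay at 14.60 to 17.67 FPKM in knockouts and 18.68 to 22.16 FPKM in controls, called lower as deposited only, and Decr1, the mitochondrial dienoyl-CoA reductase, averaged 5.13 ± 0.707 FPKM in knockouts and 5.99 ± 0.597 FPKM in controls (SD, n = 3 each), called under neither scaling.

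The electron transfer flavoprotein takes electrons from the acyl-CoA dehydrogenases and passes them to the quinone pool through its dehydrogenase Etfdh. Etfa, its alpha subunit, was at 63.97, 61.75 and 61.21 FPKM in knockout libraries and 79.61, 82.66 and 67.43 FPKM in control libraries. The groups did not overlap, but the log2 change of -0.29 (limma adjusted p = 0.0095) as deposited was 0.08 (adjusted p = 0.41) after TMM scaling. Etfb averaged 126 ± 12.3 FPKM in knockouts and 142 ± 6.07 FPKM in controls, and Etfdh 14.9 ± 1.24 FPKM in knockouts and 20.4 ± 0.282 FPKM in controls (SD, n = 3 each). Etfb, of which 67.3% of the 50-base windows also occur in Gm45233 (not analysed here), was called under neither scaling, and Etfdh was called lower as deposited only. Etfa made up 31.45 to 36.39% of the pair's FPKM in knockout libraries and 33.26 to 36.25% in control libraries, which overlapped.

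Of the 9 genes that activate or release acyl chains or steer fuel use, 3 were called higher (33.3%) and 5 lower (55.6%) as deposited. The shares of all tested genes were 11.0% and 58.8%. TMM scaling made that 4 higher (44.4%) and 3 lower (33.3%), beside 30% and 26.0% of all tested genes. The group had a median log2 change of -0.35, or 0.01 after TMM scaling. The acyl-CoA synthetases, which trap fatty acids as coenzyme A esters, went in both directions. Acsl4, the synthetase that favours arachidonic acid and other polyunsaturated chains (chromosome X, 142317993 to 142390802), was at 23.24, 22.69 and 20.00 FPKM in knockout libraries, against 13.73, 12.01 and 13.45 FPKM in control libraries. It rose 1.68-fold without overlap, by a log2 change of 0.71 (SE 0.08, limma adjusted p = 5.4e-05) as deposited and, TMM-scaled, 1.06 (adjusted p = 5.1e-06). Acsl1, a synthetase of long saturated and monounsaturated chains, was at 16.20, 16.31 and 12.85 FPKM in knockout libraries, against 23.23, 24.52 and 24.90 FPKM in control libraries. It fell, with log2 changes of -0.65 (adjusted p = 0.00021) and, TMM-scaled, -0.29 (adjusted p = 0.019), and the second call was lost without control replicate 2 (0.057). Acsl5 averaged 29.7 ± 1.85 FPKM in knockouts and 41.5 ± 1.09 FPKM in controls (SD, n = 3 each), called lower as deposited only. Acsl4 made up 32.93, 32.70 and 33.07% of the FPKM of the 3 synthetases in knockout libraries, against 17.74, 15.17 and 16.84% in control libraries, a shift that does not rest on the scaling.

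Acyl-CoA thioesterases free the fatty acid again. Acot2, the mitochondrial enzyme, was at 5.81, 6.30 and 4.31 FPKM in knockout libraries, against 9.26, 9.73 and 9.24 FPKM in control libraries. It fell, with log2 changes of -0.70 (limma adjusted p = 0.00051) and, TMM-scaled, -0.37 (adjusted p = 0.02), and the second call was lost without control replicate 2 (0.065). Acot1, the cytosolic enzyme, averaged 30.1 ± 1.34 FPKM in knockouts and 28.8 ± 0.549 FPKM in controls (SD, n = 3 each) and was called higher only after TMM scaling (log2 change 0.43). The genes lie 15.6 kb apart on chromosome 12 and share 23.9% of the 50-base windows of Acot1 and 24.5% of those of Acot2, so the split between them is uncertain. Acot2 made up 12.35 to 16.88% of the pair's FPKM in knockout libraries and 24.35 to 24.89% in control libraries. Crat, which moves acetyl groups between coenzyme A and carnitine, was at 16.21, 17.13 and 16.50 FPKM in knockout libraries and 21.66, 21.42 and 21.19 FPKM in control libraries. The groups lay apart as deposited (log2 change -0.35, adjusted p = 0.00048), whereas TMM scaling gave 0.01 (adjusted p = 0.89).

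Angptl4, a secreted inhibitor of lipoprotein lipase and a known target of PPARs (chromosome 17, 33774900 to 33781575), was at 141.83, 134.53 and 149.62 FPKM in knockout libraries, against 68.34, 81.22 and 55.10 FPKM in control libraries. It rose 2.08-fold without overlap, by a log2 change of 1.06 (SE 0.13, limma adjusted p = 0.00024) as deposited and, TMM-scaled, 1.44 (adjusted p = 0.0001). Pdk4, the kinase that closes pyruvate dehydrogenase when fat is burned, was at 5.56, 5.65 and 3.86 FPKM in knockout libraries and 3.38, 2.75 and 3.81 FPKM in control libraries. It was called higher, 0.47 (adjusted p = 0.015) as deposited and, TMM-scaled, 0.78 (adjusted p = 0.0015), and the gap between the groups was narrow. The first call was lost without knockout replicate 1 (0.060), knockout replicate 2 (0.058) or control replicate 2 (0.053), and the second held whichever library was left out. Ucp2, a carrier of the inner mitochondrial membrane, was the most abundant of the 46 and among the most abundant genes of the table, at 859.62, 986.26 and 1003.94 FPKM in knockout libraries, against 1720.01, 1638.70 and 1557.96 FPKM in control libraries. It fell, with log2 changes of -0.79 (adjusted p = 2.8e-05) and, TMM-scaled, -0.41 (adjusted p = 0.0022). Without Ucp2 the summed FPKM of the other genes in this group was 264.1 to 268.6 in knockout libraries and 197.9 to 223.6 in control libraries, while with it the sum was 1128 to 1269 in knockouts and 1756 to 1928 in controls. The higher sum without Ucp2 rested on Angptl4: with both left out, the other 7 genes summed to 115.7 to 129.6 FPKM in knockout libraries and 140.0 to 142.8 FPKM in control libraries as deposited, the opposite order, and after TMM scaling to 132.5 to 146.8 in knockouts and 123.3 to 125.5 in controls.

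**Figure D4:**
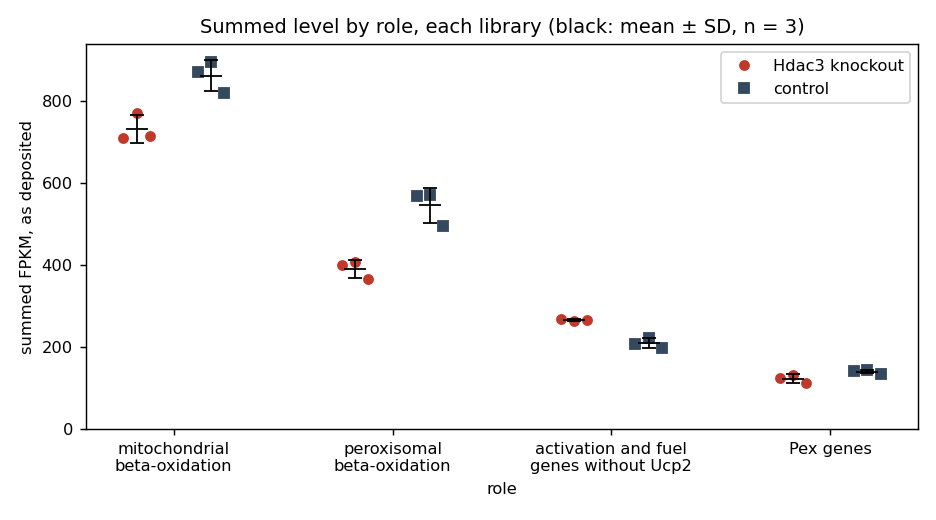
Summed FPKM of the genes of each group in every library, with knockouts left of controls and with Ucp2 left out of the activation and fuel group. As deposited the mitochondrial sums were 710.9 to 771.6 in knockouts and 820.0 to 894.7 in controls, and after TMM scaling, which is not drawn, 811.5 to 874.0 in knockouts and 713.7 to 788.3 in controls, so the order turns with the scaling. The peroxisomal gap rests on Acaa1b and the higher knockout sum of the activation and fuel group on Angptl4.

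The sums of 2 other groups depended on the scaling as well. For the peroxisomal genes the sum was 366.2 to 408.9 FPKM in knockout libraries and 496.6 to 571.0 FPKM in control libraries as deposited. After TMM scaling it was 419.3 to 463.1 in knockout libraries and 432.2 to 503.0 in control libraries, which overlapped. Acaa1b carried most of the gap as deposited. Without it the other 8 genes summed to 359.0 to 396.9 FPKM in knockout libraries and 394.8 to 420.7 FPKM in control libraries, with overlap, and after TMM scaling to 411.0 to 449.6 in knockouts and 343.6 to 370.6 in controls. With Hsd17b4 left out instead, the sums were 217.7 to 242.0 FPKM in knockouts and 394.5 to 464.5 FPKM in controls. After TMM scaling these were 249.2 to 274.2 in knockouts and 343.3 to 409.3 in controls, so the overlap of the full sum rested on Hsd17b4. For the Pex genes the sum was 112.8 to 133.3 FPKM in knockout libraries and 135.9 to 144.3 FPKM in control libraries as deposited. After TMM scaling it was 129.2 to 151.0 in knockout libraries and 118.3 to 127.1 in control libraries, so the order turned. That turn rested on Pex11a, since the other 10 Pex genes summed to 109.9 to 118.1 in knockout libraries and 111.7 to 119.5 in control libraries after TMM scaling, with overlap, and to 95.97 to 104.3 FPKM in knockouts and 128.3 to 135.6 FPKM in controls as deposited. These sums without 1 gene were added after the values were seen.

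Of the 11 Pex genes 1 was called higher (9.1%) and 7 lower (63.6%) as deposited, beside 11.0% and 58.8% of all tested genes. TMM scaling made that 1 higher (9.1%) and 2 lower (18.2%), beside 30% and 26.0% of all tested genes. The group had a median log2 change of -0.27, or 0.08 after TMM scaling. Pex11a, which promotes elongation and division of peroxisomes and is induced by peroxisome proliferators in rodent liver, was the one that rose (chromosome 7, 79735957 to 79743131). It was at 26.66, 29.03 and 16.87 FPKM in knockout libraries, against 7.84, 8.64 and 7.55 FPKM in control libraries. Knockout replicate 3 lay below the other knockouts and still above every control, and the knockout mean was 3.02-fold the control mean. This is a log2 change of 1.45 (SE 0.20, limma adjusted p = 0.00086) as deposited and, TMM-scaled, 1.80 (adjusted p = 0.00048), the largest rise among the 46 genes under both. Pex11a made up 21.30, 21.78 and 14.95% of the summed FPKM of the Pex genes in knockout libraries, against 5.54, 5.99 and 5.56% in control libraries. The lipid droplet gene Plin1, which lies next to Pex11a (chromosome 7, 79721164 to 79732904) and was looked up after these values were seen, was at 1.21, 1.84 and 0.77 FPKM in knockout libraries and 0.77, 1.01 and 0.18 FPKM in control libraries.

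Among the peroxins that import matrix enzymes, Pex6, a subunit of the ATPase that pulls the import receptor back out of the membrane (chromosome 17, 46711476 to 46725543), was at 6.83, 5.87 and 8.90 FPKM in knockout libraries, against 15.06, 14.24 and 16.62 FPKM in control libraries. It fell to 47.0% of the control mean, a log2 change of -1.01 (SE 0.13, limma adjusted p = 0.0002) as deposited and, TMM-scaled, -0.66 (adjusted p = 0.0033). Pex2, a ring-finger ubiquitin ligase of the import receptor, was at 12.60, 11.83 and 12.72 FPKM in knockout libraries, against 18.94, 19.20 and 18.67 FPKM in control libraries. It fell as well, with log2 changes of -0.58 (adjusted p = 3.4e-05) and, TMM-scaled, -0.22 (adjusted p = 0.013). With 1 library left out, the TMM-scaled adjusted p of Pex2 reached 0.05 (rounded), next to the threshold. Pex7, the receptor for enzymes with the N-terminal signal, the thiolase among them, was at 8.94, 9.55 and 7.71 FPKM in knockout libraries and 10.41, 10.77 and 11.16 FPKM in control libraries. The groups lay apart as deposited (log2 change -0.28, adjusted p = 0.014), whereas TMM scaling gave 0.06 (adjusted p = 0.53).

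Pex14, the docking protein, whose transcripts lie in 25.1% of their 50-base windows across Gm17029 on the other strand (not analysed here), was at 17.80, 20.02 and 17.20 FPKM in knockout libraries and 22.13, 23.00 and 19.69 FPKM in control libraries, with overlap. Its call as deposited (log2 change -0.23, limma adjusted p = 0.032) was lost without knockout replicate 1 (0.089), knockout replicate 3 (0.10), control replicate 1 (0.086) or control replicate 2 (0.11), and after TMM scaling the log2 change was 0.13. Pex5, the receptor for the C-terminal signal, averaged 9.21 ± 0.455 FPKM in knockouts and 13.2 ± 0.307 FPKM in controls, and Pex13, its partner in docking, 4.67 ± 0.101 FPKM in knockouts and 6.64 ± 0.435 FPKM in controls (SD, n = 3 each). Both were called lower as deposited only. Pex10, a second ring-finger ligase and the least abundant of the 46, averaged 3.51 ± 0.240 FPKM in knockouts and 3.68 ± 0.495 FPKM in controls (SD, n = 3 each), called under neither scaling.

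Pex3, Pex16 and Pex19 insert the membrane proteins of the peroxisome. Pex19, the soluble receptor, was at 9.33, 9.54 and 8.92 FPKM in knockout libraries and 11.35, 12.21 and 10.49 FPKM in control libraries. It was called lower as deposited (log2 change -0.27, limma adjusted p = 0.0094), whereas TMM scaling gave 0.08 (adjusted p = 0.39). Pex3, which anchors Pex19, averaged 4.96 ± 0.829 FPKM in knockouts and 5.94 ± 0.403 FPKM in controls, and Pex16 21.3 ± 2.21 FPKM in knockouts and 25.1 ± 2.63 FPKM in controls (SD, n = 3 each). Both overlapped between groups and were called under neither scaling.

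Wider lists of the same pathways were counted in the same test. Their counts stand beside 11.0% of all tested genes called higher and 58.8% called lower as deposited. After TMM scaling these shares were 30% and 26.0%. Whether any list departs from them was not tested. Where a pair of log2 changes stands for 1 gene or list, the first is as deposited and the other after TMM scaling. Of 25 tested further genes of peroxisomal metabolism 3 were called higher and 19 lower as deposited, and TMM scaling made that 5 higher and 7 lower, with a median log2 change of -0.35 and -0.02. Pecr, the peroxisomal trans-2-enoyl-CoA reductase, was at 4.45, 6.36 and 5.43 FPKM in knockout libraries, against 11.21, 13.40 and 10.80 FPKM in control libraries (log2 change -1.0 as deposited and -0.67 after TMM scaling, both called). Phyh, which starts the breakdown of branched phytanic acid, was at 13.83, 14.95 and 12.52 FPKM in knockout libraries, against 26.17, 26.99 and 25.03 FPKM in control libraries (-0.88 and -0.52, both called). Pxmp4, a peroxisomal membrane protein gene, fell as well (-0.86 and -0.49, both called). In none of these genes did the groups overlap.

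Of 6 tested genes of ether lipid synthesis, which begins in peroxisomes, 1 was called higher and 3 lower as deposited, and TMM scaling made that 2 higher and 2 lower. Dhrs7b, the reductase of that pathway, was at 29.95, 25.60 and 28.25 FPKM in knockout libraries, against 71.86, 65.92 and 68.23 FPKM in control libraries, a log2 change of -1.27 (limma adjusted p = 1e-06) as deposited and -0.90 after TMM scaling. Tmem189, the plasmanylethanolamine desaturase that makes the vinyl ether bond of plasmalogens, was at 111.93, 113.21 and 124.47 FPKM in knockout libraries, against 81.14, 77.50 and 72.74 FPKM in control libraries, a log2 change of 0.59 as deposited and 0.96 after TMM scaling, both called. Dhrs7b and Tmem189 thus went in opposite directions. Gnpat and Agps of the same list had log2 changes of 0.06 and -0.18 as deposited, neither called. After TMM scaling these were 0.42 (called higher) and 0.18 (not called).

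Of 13 further tested peroxins and peroxisome-associated genes none was called higher and 7 were called lower as deposited, and TMM scaling made that 5 higher and 3 lower. Those lower under both were Usp9x, a deubiquitinase, Acbd5, which tethers peroxisomes to the endoplasmic reticulum, and Dnm1l, the dynamin that cuts peroxisomes and mitochondria, whose log2 changes were -0.66, -0.61 and -0.54, or -0.31, -0.26 and -0.18 after TMM scaling. Pex11g, a relative of Pex11a that was looked up after values were seen, was called under neither scaling, and its difference from Pex11a was not tested. Pex11g was at 4.59, 4.24 and 3.19 FPKM in knockout libraries and 5.19, 4.52 and 5.44 FPKM in control libraries.

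Of 22 further tested genes of mitochondrial fatty acid oxidation and related acyl-CoA metabolism 3 were called higher and 11 lower as deposited, and TMM scaling made that 10 higher and 5 lower, with median log2 changes of -0.19 and 0.12. This list also holds genes that act outside mitochondria, Crot and Slc22a5 among them, and outside fatty acid oxidation, such as Acaca and Ivd. Slc22a5, the carnitine transporter of the plasma membrane, was at 4.30, 4.52 and 4.16 FPKM in knockout libraries, against 8.14, 7.45 and 8.69 FPKM in control libraries (-0.77 and -0.45, both called). Acat1, the mitochondrial acetoacetyl-CoA thiolase (-0.75 and -0.39), and Crot, the peroxisomal carnitine octanoyltransferase (-0.71 and -0.36), were also called lower under both scalings. Of 15 tested genes of ketone use and entry to the citric acid cycle 1 was called higher and 10 lower as deposited, and TMM scaling made that 3 higher and 6 lower. Pdk1, a pyruvate dehydrogenase kinase like Pdk4, was at 2.35, 2.50 and 1.91 FPKM in knockout libraries, against 7.07, 7.54 and 6.15 FPKM in control libraries (-1.28 and -0.99, both called), and Pdk3, another, had log2 changes of -0.71 and -0.37 (both called). Ucp3, the neighbour of Ucp2 on chromosome 7, was at 22.17, 22.01 and 20.61 FPKM in knockout libraries, against 46.05, 46.98 and 36.34 FPKM in control libraries (-0.96 and -0.59, both called).

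Of 19 tested regulators around the PPAR and estrogen-related receptor axes 1 was called higher and 15 lower as deposited. TMM scaling made that 4 higher and 10 lower. Most are nuclear receptors and cofactors of these axes, which control many of these genes in liver and muscle. The list also holds other regulators, Nrf1, Tfam, Sirt3 and Tfeb among them. Sirt3 was the gene called higher as deposited (log2 change 0.23). The median log2 change of this list was -0.64 as deposited and -0.28 after TMM scaling, beside -0.31 and 0.02 for all tested genes. Ncoa2, a coactivator, was at 4.20, 3.77 and 3.52 FPKM in knockout libraries, against 11.40, 10.15 and 10.79 FPKM in control libraries (-1.29 and -0.96). Nrip1, a corepressor, was at 10.58, 9.18 and 10.98 FPKM in knockout libraries, against 25.18, 26.43 and 23.77 FPKM in control libraries (-1.22 and -0.86), and Lpin1, a phosphatidate phosphatase and coactivator, had log2 changes of -1.25 and -0.88. All 3 were called under both scalings and did not overlap between groups. Ppara, the receptor best known for inducing Acaa1b and Pex11a in mouse liver and looked up after values were seen, lay at 0.01 to 0.03 FPKM in knockout libraries and was listed at 0 in control libraries. Pparg, the PPAR known for its part in alveolar macrophage identity and also looked up after values were seen, was at 66.67, 76.85 and 78.47 FPKM in knockout libraries, against 128.82, 125.03 and 134.25 FPKM in control libraries (-0.80 and -0.43, both called). Rxra, the partner receptor and looked up in the same way, was at 54.20, 52.68 and 57.07 FPKM in knockout libraries, against 111.89, 105.77 and 91.23 FPKM in control libraries (-0.90 and -0.52, both called). Ppard, the remaining PPAR, did not follow Pparg. It lay at 16.89 to 17.94 FPKM in knockout libraries and 18.03 to 18.94 FPKM in control libraries. Its log2 change was -0.09 (not called) as deposited and 0.27 (called higher) after TMM scaling.

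Markers of the labelled cell type were high in every library: 15 alveolar macrophage genes summed to 23220 to 30050 FPKM in knockouts and 18340 to 20600 FPKM in controls, and all were tested, 5 called higher and 7 lower (with TMM scaling 7 and 7). Chil3, a secreted chitinase-like protein gene, made up most of these sums, at 17845.36 to 25158.12 FPKM in knockouts and 11866.95 to 14325.71 FPKM in controls. The other 14 summed to 4895 to 5375 FPKM in knockouts and 6278 to 6814 FPKM in controls as deposited, and the ranges overlapped after TMM scaling. Among them Ear1 fell to 3.25%, Cidec to 11.4% and Krt79 to 13.7% of the control mean. Others rose: Car4 4.30-fold, Fabp5 2.17-fold, Itgax 1.96-fold and Mrc1 1.71-fold, each without overlap under both scalings. Markers of cells that a lung sort could also hold had far lower sums, and some of these were lower in every knockout library than in any control. For 6 genes of alveolar type 2 cells the sum was 17.33 to 35.01 FPKM in knockouts and 51.76 to 108.5 FPKM in controls. Sftpc made up most of it. The other 5 summed to 4.64 to 8.90 FPKM in knockouts and 9.60 to 20.50 FPKM in controls, and these ranges overlapped after TMM scaling. Etv5, 1 of the 5, was called higher under both scalings. For 4 genes of B cells the sum was 5.18 to 6.41 FPKM in knockouts and 14.15 to 28.41 FPKM in controls, and for 4 of T and NK cells 0.96 to 1.42 FPKM in knockouts and 4.0 to 7.05 FPKM in controls. For 6 genes of neutrophils it was 32.06 to 52.71 FPKM in knockouts and 62.10 to 77.00 FPKM in controls. That gap was Csf3r alone (3.81 to 5.62 FPKM in knockouts, 25.15 to 50.50 in controls): the other 5 summed to 28.25 to 47.09 FPKM in knockouts and 26.50 to 36.95 FPKM in controls, none of them was called lower, and Ly6g was at 0.06 FPKM or less in every library. In endothelium Pecam1, Cdh5, Kdr and Cldn5 were called lower as deposited and summed to 3.11 to 4.32 FPKM in knockouts and 13.45 to 31.15 FPKM in controls, whereas Vwf, the most abundant of the 5, was at 25.58 to 30.87 FPKM in knockouts and 20.43 to 25.09 FPKM in controls. The ranges overlapped for erythroid cells (20.08 to 105.1 FPKM in knockouts, 37.65 to 283.0 in controls) and airway and other epithelium (25.51 to 78.41 in knockouts, 47.83 to 184.1 in controls), and for all 5 endothelial genes with Vwf among them (29.63 to 33.98 in knockouts, 33.88 to 56.24 in controls). They also overlapped, at lower sums, for fibroblasts (2.68 to 9.56 in knockouts, 6.08 to 14.70 in controls), dendritic cells (4.30 to 7.81 in knockouts, 4.53 to 13.0 in controls), monocytes and interstitial macrophages (5.18 to 6.84 in knockouts, 5.0 to 6.06 in controls) and adipocytes (0.77 to 1.84 in knockouts, 0.77 to 7.03 in controls). Opposite moves without overlap lay within the monocyte and interstitial macrophage sum. C1qa, C1qb and C1qc were higher in knockouts, and Ly6c2, Ccr2 and Cx3cr1 were lower. Without Ccr2 the other 5 summed to 4.23 to 6.11 FPKM in knockouts and 2.37 to 3.77 FPKM in controls. TMM scaling kept this order. Of the dendritic cell genes Clec9a was called higher and Ccr7 lower, under both scalings. None of the listed markers was at 0 in all 6 libraries, which was fixed in advance, since none of the 18392 genes was. The part of such cells in the values of the 46 genes was not tested.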

How the data were processed

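RNA was measured in 6 libraries of sorted mouse alveolar macrophages, 3 per group. The authors deposited gene-level FPKM per library; the submitters' processing notes name Bowtie2, RSEM and mm10, and how strand and read quality were handled is not given in the sources used here. FPKM keep no depth, so it is unknown and no counting interval is given. For 24 genes whose symbols had become dates the symbol was restored from the gene ID; 18342 IDs matched RefSeq genes on GRCm38.p6, the assembly of mm10, and 50 did not. That annotation supplies the coordinates.

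From the FPKM, log2(FPKM + 1) was tested with limma 3.58.1 in R 4.3.3 (trended, robust empirical Bayes, genotype only, two-sided) for the 10847 genes that averaged 1 FPKM or more. The added 1 FPKM understates changes of low genes. TMM factors (30% of log ratios and 5% of levels trimmed) were computed from the FPKM by the published formula. The procedure was tested on simulated data with 200 changed genes, as many raised as lowered, and a common spread. In the real data 7570 genes were called as deposited, so that test does not bear on the choice of scaling. Other settings were TPM, a pseudocount of 0.1, other filters, a constant prior, a replicate block and leaving out each library. A replicate number was not found to pair libraries.

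The members and lists were chosen with earlier results of these data known. Values per library are given for members called alike under both scalings or turning with a call; of each wider list up to 3 genes called alike under both, largest log2 change first, and a mean of 5 FPKM or more in 1 group. Shared 50-base windows were found in GENCODE M21 transcripts. Promoters had a window in the RefSeq table for 38 of the 46 members. Some genes of the wider lists are not reported here by name.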

Additional observations from a re-analysis of the deposited data

How the results depend on the processing

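TMM scaling moved most counts. After it 3248 of all tested genes were called higher and 2808 lower; of the 46 members 14 were higher and 12 lower; 6 mitochondrial genes were higher and 3 lower; 3 peroxisomal genes were higher; 3 activation and fuel genes and 2 Pex genes were lower; and the members' median log2 change was 0.081. The log2 change turned its sign after TMM scaling for Cpt2 (0.19), Hadha (0.22), Hadhb (0.20), Etfa (0.084), Etfb (0.19), Eci1 (0.29), Decr1 (0.13), Echs1 (0.27), Ehhadh (0.20), Decr2 (0.033), Abcd2 (0.30), Crat (0.0098), Pex3 (0.090), Pex7 (0.063), Pex10 (0.25), Pex14 (0.13), Pex16 (0.14) and Pex19 (0.079). By construction it raises every knockout value relative to controls. With TPM 1 mitochondrial gene was called higher, and Acox3 (-0.060) and Acot1 (-0.033) turned. The pseudocount, the filters and the constant prior turned no member.

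With 1 library left out, 5 to 7 members were called higher and 23 to 31 lower, with 1 to 2 mitochondrial genes higher (1 without knockout replicate 2 or any control), and Pex10 ranged from -0.11 to 0.034. After TMM scaling, with 1 library left out, 11 to 14 members were higher and 9 to 12 lower; 3 to 6 mitochondrial genes were higher, 1 to 3 activation and fuel genes lower, and 1 to 2 Pex genes higher. The causes were not tested.

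Same-numbered libraries did not deviate together (correlations -0.11, -0.06 and -0.09 of deviations from group means). With the replicate number as a block, 7373 genes were called (1180 higher, 6193 lower) and 7 members were higher and 26 lower; Cpt2 lost its call (limma adjusted p = 0.053) and Pex16 gained one (0.023). FPKM hold no depth, so nothing can be said of counting error for the low members.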
